A study of Mus musculus with 2 samples.

Results

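TRAV6 family rearrangements are the TCRα transcripts whose V segment was named as a member of the mouse TRAV6 family. A clonotype, meaning all reads of a library that share the same CDR3 nucleotide sequence, was counted when its first-listed J gene was a TRAJ gene and the first gene in its list of V candidates was a TRAV6, TRAV6D or TRAV6N gene. By this rule 1011 of the 6089 TCRα clonotypes of the thymus library and 1509 of the 9583 of the spleen library were TRAV6, or 2520 of 15672 in all.

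The study generated T cells, called iT cells, from C57BL/6 mouse embryonic stem cells (CD45.2) of the iR9-ESC line, which carries a doxycycline-inducible Runx1-p2a-Hoxa9 cassette in Rosa26. Hematopoietic progenitors made from these cells were transplanted into irradiated B-NDG mice, an immunodeficient CD45.1 strain (NOD background, Prkdc scid, Il2rg-null) that makes no T cells of its own. Doxycycline was given in culture, and the transplantation is described as done without it. A supplementary figure on gut and lung T cells, however, describes recipients fed doxycycline for 6 weeks. Which of these holds for the mice used here is not stated. At week 6 CD4 and CD8 single-positive CD45.2+ iT cells were sorted from both organs. The study's methods give the naïve markers CD62L+ CD44- for the spleen gate alone and a thymus gate negative for other lineages and for TCRγδ, whereas its account of the results calls the cells of both organs naïve by these markers. TCRα and TCRβ transcripts were amplified with a 5′-end TCR profiling kit and sequenced. Each tissue gave 1 library from a stated 15000 sorted T cells, with CD4 and CD8 cells in the same library, and all cells in both came from the same engineered line. Tissue and library, and any difference in gate, therefore cannot be told apart, no difference between the libraries has a replicate check, and the tests below compare these libraries and not the tissues. Whether both organs came from the same mice is not given in the sources used here.

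A TCRα gene is made by joining a TRAV segment to a TRAJ segment, with bases trimmed from either end and sometimes added between them. The join removes the DNA in between, so a cell can rearrange the same chromosome again, each time joining a TRAV segment further upstream to a TRAJ segment further downstream. In C57BL/6 mice a stretch of the TRAV locus is present in several near-identical copies, whose genes carry the plain name, the letter D or the letter N. TRAV6 has members in each copy and 2 further members, TRAV6-1 and TRAV6-2, upstream of the duplicated stretch.

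All 15 TRAV6 genes annotated as V segments were found in both libraries. In GRCm38 (GENCODE M21) they lie on the plus strand of chromosome 14, from TRAV6-1 at chr14:52638515-52638962, 1516 kb from the first TRAJ, to TRAV6-7-DV9 at chr14:53709902-53710419, 445 kb from it. TRAV6-7-DV9 is also used as a TCRδ V segment, hence its double name. The part of each germline V gene that enters the CDR3 is 14 bases long and differs at 6 positions over the family, shown here in capitals because these are the bases by which a CDR3 can tell the copies apart. The genes are given from 5′ to 3′ along the locus, in letters read from the GENCODE transcripts.
TRAV6-1: tgTgTtCtgGGTga
TRAV6-2: tgTgTtCtgGGTga
TRAV6D-3: tgTgCtAtgAGTga
TRAV6D-4: tgTgCtCtgGTTga
TRAV6D-5: tgTgTtCtgGGTga
TRAV6D-6: tgTgCtCtgGGTga
TRAV6D-7: tgTgCtCtgGGTga
TRAV6N-5: tgTgCtCtgGGTga
TRAV6N-6: tgCgCtCtgAGTga
TRAV6N-7: tgTgCtCtgGGTga
TRAV6-3: tgTgCtAtgAGAga
TRAV6-4: tgTgCtCtgGTTga
TRAV6-5: tgTgCtCtgAGTga
TRAV6-6: tgTgCtCtgGGTga
TRAV6-7-DV9: tgTgCtCtgAGTga

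Counting from 1 at the first base of the CDR3, TRAV6-7-DV9 differs from TRAV6D-7 by G10A, TRAV6-5 differs from TRAV6N-5 by the same G10A, and TRAV6-3 differs from TRAV6D-3 by T12A. TRAV6N-6 carries T3C and G10A against TRAV6-6. Over the same 3′ stretch of the V transcripts, TRAV6-6 and TRAV6D-6 had 0 differences, as had TRAV6D-7 and TRAV6N-7. Other pairs of copies of 1 gene differed at 1 to 13 bases and genes of different subgroups (the number after the hyphen) at 15 to 63.

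TRAV6 was the V family with most TCRα clonotypes in both libraries, ahead of TRAV7 with 888 in the thymus and 1177 in the spleen. Its share was 16.6% of TCRα clonotypes in the thymus library (Wilson 95% interval 15.7 to 17.6%) and 15.7% in the spleen library (15.0 to 16.5%). The shares differed by 0.857 percentage points, with an interval of -0.32 to 2.05, which did not pass the test. That test was a two-sided Fisher's exact test over the 23 V families with at least 10 clonotypes, with Benjamini-Hochberg adjustment, and gave an adjusted p of 0.263 where 39.1% of the families were called at 0.05. By reads, TRAV6 held 128241 of 918063 TCRα reads of the thymus library (13.97%) and 272079 of 1820314 of the spleen library (14.9%). The median TRAV6 clonotype of the thymus had 86 reads and that of the spleen 101, close to the 83 and 103 of other TCRα clonotypes, and 46 and 55 TRAV6 clonotypes rested on 1 read. Reads are amplified copies with no molecular identifier stated, so every interval here covers counting error only. More cells of a clonotype and more transcripts per cell cannot be told apart from reads.

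Use within the family was uneven. TRAV6-6 was the most often listed gene, with 185 thymus and 264 spleen clonotypes, or 18.3% (16.0 to 20.8%) and 17.5% (15.7 to 19.5%) of the family. TRAV6D-7 came next with 173 and 221 clonotypes, and TRAV6-7-DV9 followed with 99 and 177. Every clonotype listed under TRAV6-6 or TRAV6D-7 shared its top score with another TRAV6 gene, as described below. Their counts therefore belong to unresolved copies and not to a single gene. TRAV6D-4 was the least used in both, with 18 and 28 clonotypes. The remaining genes ranged from 21 (TRAV6-1) to 76 (TRAV6N-5 and TRAV6N-7) clonotypes in the thymus, and from 36 (TRAV6-4) to 139 (TRAV6N-6) in the spleen. Over the 15 genes the shares in the libraries had a Pearson correlation of 0.933 and a Spearman correlation of 0.867, across genes that are not independent replicates and are named by the same aligner.

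**Figure D1:**
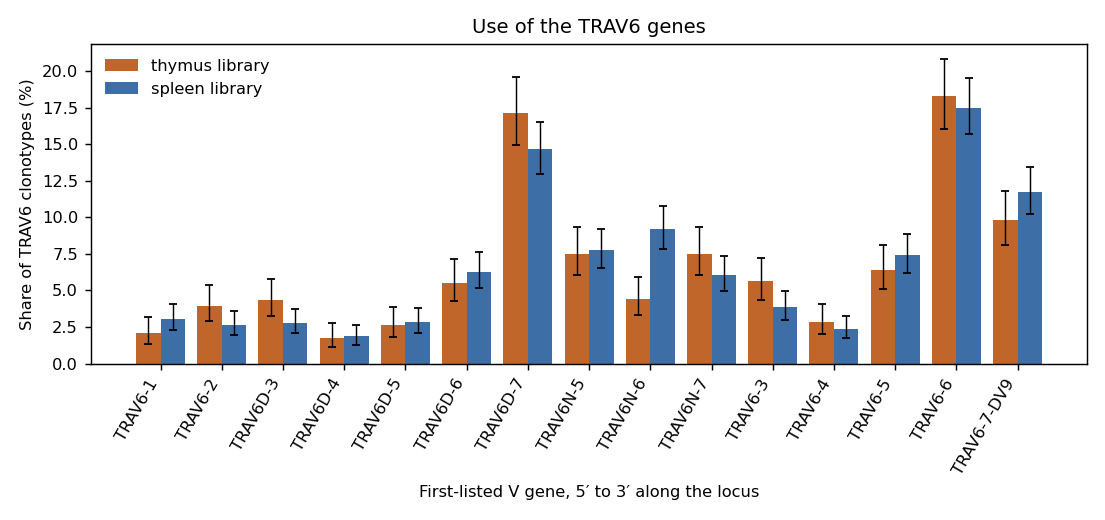
Bars give each gene's share of TRAV6 clonotypes (%) in the thymus and spleen libraries, with Wilson 95% intervals, in the order of the genes along the locus. TRAV6-6 and TRAV6D-7 stand highest in both libraries, and TRAV6N-6 is at 4.45% of the family in the thymus and 9.21% in the spleen. Genes are the first listed, and all clonotypes under TRAV6-6 and TRAV6D-7 shared their top score with another TRAV6 gene.

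TRAV6N-6 was the 1 TRAV6 gene of 15 whose share of TCRα clonotypes passed the test between the libraries. It had 45 clonotypes in the thymus, 0.739% of TCRα clonotypes, and 139 in the spleen, 1.45%. The difference of -0.71 percentage points (-1.03 to -0.38) had an adjusted p of 0.000837 by Fisher's exact test over 114 V genes, of which 14.9% were called. It was called in every alternative that keeps a test. TRAV6-3 and TRAV6D-3, its 1-base neighbour, had 57 and 44 clonotypes in the thymus against 58 and 42 in the spleen, with adjusted p-values of 0.109 and 0.118. Among productive clonotypes alone TRAV6-3 (0.814% against 0.376%, adjusted p = 0.0168) and TRAV6D-7 (2.95% against 1.83%, adjusted p = 0.00294) were higher in the thymus by the same exact test. The share of all V genes called among productive clonotypes was not counted. Both names are also uncertain between copies, as described below.

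Grouped by subgroup, the members numbered 7 formed 34.4% of TRAV6 clonotypes in the thymus and 32.4% in the spleen, and those numbered 6 formed 28.3% and 33.0%. Subgroup 5 held 16.6% and 18.0%. Subgroup 3 held 9.99% and 6.63%, and subgroup 4 held 4.65% and 4.24%. By copy, genes with the plain name held 43.0% of clonotypes in the thymus and 42.9% in the spleen, D genes 31.5% and 28.4%, N genes 19.5% (197 clonotypes) and 347 clonotypes of 1509, and TRAV6-1 with TRAV6-2 held 6.03% and 5.70%. These shares depend on clonotypes whose first-listed gene shared its score with another gene. Without them the plain-name genes held 35.6% and 35.5%, D genes 22.1% and 20.6%, and N genes 32.8% and 35.4%. The order of D and N genes was then reversed. Leaving out ties removes every clonotype listed under TRAV6D-7, 173 in the thymus and 221 in the spleen, and none listed under an N gene. The untied shares therefore depend on which gene of a tied pair was listed first and do not measure copy use.

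Copy names rest on how far a read can tell the copies apart. In 410 thymus clonotypes (40.6%, 37.6 to 43.6%) and 528 spleen clonotypes (35.0%, 32.6 to 37.4%) the first-listed TRAV6 gene shared its score exactly with another gene, against 23.7% and 26.7% of other TCRα clonotypes. Every such tie was with another TRAV6 gene. Within 1 subgroup lay 334 of the thymus ties and 439 of the spleen ties. The commonest was TRAV6D-7 with TRAV6N-7, in 171 thymus and 221 spleen clonotypes, followed by TRAV6-6 with TRAV6D-6 in 144 and 199, the pairs without a base of difference. All clonotypes listed under TRAV6-6 or under TRAV6D-7 were tied, the TRAV6-6 ones with more than 1 other gene in 41 thymus and 65 spleen clonotypes. Of those listed under TRAV6D-6, 12 of 56 in the thymus library and 6 of 95 in the spleen library were tied. Tied clonotypes were smaller, with median reads of 71 and 75.5 in thymus and spleen against 100 and 120 for untied ones. Clonotypes listed under TRAV6N-7 were never tied, although TRAV6D-7 has the same letters in the transcripts compared, and 62 of the 76 in the thymus and 76 of the 91 in the spleen also listed TRAV6D-7 at a lower score.

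The base at position 10 was compared with the names, a comparison chosen after the values were seen. It lies in the V part of the CDR3, which is also aligned to name the gene. The comparison is therefore not independent of the names. The base was read in clonotypes whose CDR3 kept the germline bases on both sides of it. TRAV6-7-DV9 had its own base in 65 of 65 such clonotypes of the thymus and 111 of 111 of the spleen. TRAV6D-7 had the base it shares with TRAV6N-7 in 86 of 93 and 130 of 147, and TRAV6N-7 in 45 of 46 and 58 of 60. For subgroup 5 the name and the base parted. TRAV6-5 had its own base in 27 of 37 thymus and 36 of 77 spleen clonotypes, and TRAV6N-5 in 17 of 51 and 41 of 79. TRAV6-3 and TRAV6D-3 were read at position 12, where only the germline bases before it were required. Trimmed or added bases can therefore stand there. The genes' own bases were found in 32 of 50 and 16 of 35 in the thymus and in 34 of 51 and 16 of 36 in the spleen. The base of the other copy stood in 11 and 15 of them in the thymus and in 11 and 13 in the spleen. The split of subgroup 5 into copies is therefore uncertain in these libraries. For subgroup 3 this base cannot tell trimming at the junction from a wrong copy name, so its split is not settled either. Every clonotype read under the name TRAV6-7-DV9 had that gene's base. The same base also stood in 7 thymus and 17 spleen clonotypes listed under TRAV6D-7, and in 1 and 2 listed under TRAV6N-7.

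TRAV6 genes were joined to 44 TRAJ genes in the thymus and 46 in the spleen, and the pairs of V and J gene numbered 363 and 405. TRAJ23 was the leading partner in both, with 83 thymus clonotypes (8.21%, 6.67 to 10.1%) and 107 spleen clonotypes (7.09%, 5.90 to 8.498%), against 5.002% and 4.88% of clonotypes with other V genes. TRAJ31 came next with 71 and 98 clonotypes. The third was TRAJ27 with 63 in the thymus and TRAJ22 with 84 in the spleen. The most frequent pairs were TRAV6D-7 with TRAJ23 in the thymus, 18 clonotypes, and TRAV6-6 with TRAJ31 in the spleen, 22 clonotypes. TRAV6-7-DV9 led with TRAJ49 in both libraries, with 11 and 18 clonotypes.

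**Figure D2:**
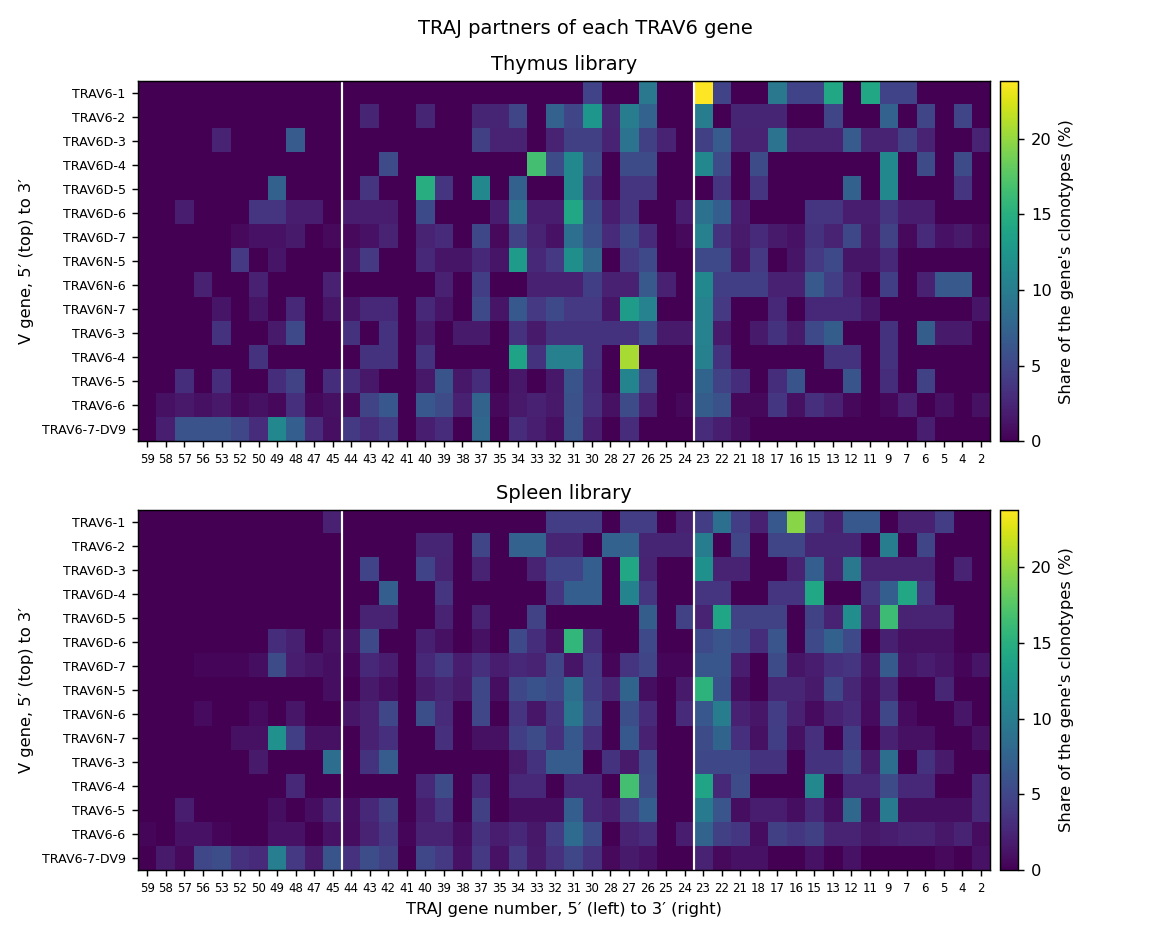
Each row is a TRAV6 gene, from 5′ (top) to 3′, and each column a TRAJ gene from 5′ (left) to 3′, for the thymus and spleen libraries, with TRAJ genes that TRAV6 never used left out. Colour gives the share of the gene's clonotypes (%), and white lines part the TRAJ blocks after TRAJ45 and after TRAJ24. TRAV6-7-DV9 has 50.5% (thymus) and 41.2% (spleen) of its clonotypes in the left block, and TRAV6-1 has 85.7% and 73.9% in the right block.

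TRAJ partners were grouped into a 5′ block (TRAJ45 and upstream), a middle block (TRAJ24 to TRAJ44) and a 3′ block (TRAJ23 and downstream). TRAV6-7-DV9, the member nearest to the TRAJ genes, was joined to the 5′ block in 50.5% of its thymus clonotypes (40.8 to 60.2%) and 41.2% of its spleen clonotypes (34.3 to 48.6%), and to the 3′ block in 8.08% and 9.04%. TRAV6-1, the member farthest from them, was joined to the 3′ block in 85.7% of 21 thymus clonotypes (65.4 to 95.02%) and 73.9% of 46 spleen clonotypes (59.7 to 84.4%). TRAV6-2, its neighbour, had 40.0% and 47.5% in the 3′ block and no clonotype in the 5′ block, with a Wilson upper limit of 8.76% for 0 of 40. The median TRAJ number was 45 and 43 for TRAV6-7-DV9 and 17 in both libraries for TRAV6-1.

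The genes in between, placed by their listed names, did not follow 1 line. TRAV6-6, 638 kb from the first TRAJ, had 12.4% and 6.44% of its clonotypes in the 5′ block, and TRAV6D-6, with the same letters but 1333 kb away, had 12.5% and 6.32%. TRAV6D-7 had 5.20% and 11.8%, and TRAV6N-7 had 6.58% and 20.9%. Across the 15 genes the 3′ block share had a Pearson correlation with the distance to the first TRAJ of 0.589 in the thymus and 0.623 in the spleen, and a Spearman correlation of 0.586 and 0.466. Without TRAV6-1 and TRAV6-7-DV9 the Pearson values were 0.311 and 0.336 over 13 genes. These are descriptions across genes that share a library and whose names are partly tied. Every clonotype listed under TRAV6-6 was tied with TRAV6D-6, and every one under TRAV6D-7 with TRAV6N-7. Their distances therefore cannot be assigned to a clonotype, and comparing such pairs does not test distance.

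**Figure D3:**
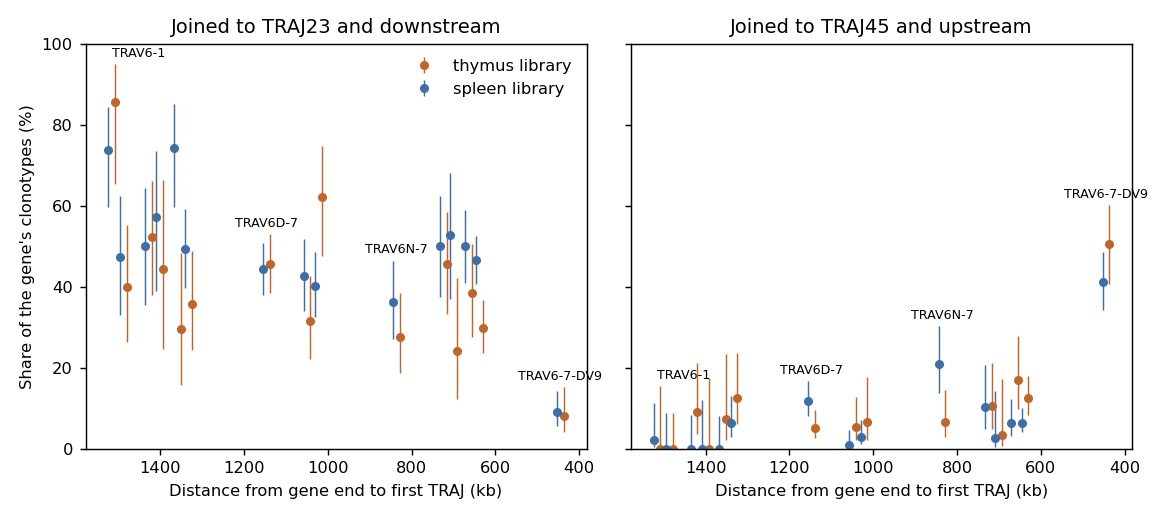
Points give, for each TRAV6 gene and library, the share of its clonotypes (%) joined to the 3′ block (left) and to the 5′ block (right) against the distance from the gene's end to the first TRAJ (kb, larger to the left), with Wilson 95% intervals and a small sideways shift between libraries. TRAV6-7-DV9 lies apart from the other genes in both panels, at 8.08% and 9.04% on the left and 50.5% and 41.2% on the right.

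The contrast within subgroup 7 was also counted by the base in place of the name. This contrast was picked after its values were seen and has no test. Among clonotypes listed in subgroup 7 that kept the other germline bases up to position 12, those with the TRAV6-7-DV9 form (G10A against TRAV6D-7) were joined to the 5′ block in 39.7% of 73 thymus clonotypes (29.3 to 51.2%) and 36.2% of 130 spleen clonotypes (28.4 to 44.7%). Those with the TRAV6D-7 and TRAV6N-7 form were joined to it in 2.29% of 131 (0.782 to 6.52%) and 13.8% of 188 (9.62 to 19.5%). Of the 73 and 130 with the TRAV6-7-DV9 form, 65 and 111 were listed under that gene. The base therefore counted much the same clonotypes as the name. By copy, plain-name genes had 20.9% of clonotypes in the 5′ block in the thymus and 16.1% in the spleen, D genes 6.92% and 7.46%, N genes 6.09% and 6.92%, and TRAV6-1 with TRAV6-2 had 0% and 1.16%. Without TRAV6-7-DV9 the whole family had 8.22% and 6.61%.

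As a family, TRAV6 was joined to the 3′ block in 366 of 1011 thymus clonotypes (36.2%) and 649 of 1509 spleen clonotypes (43.0%). The difference of -6.81 percentage points (-10.6 to -2.91) had an adjusted p of 0.0156 by Fisher's exact test, and TRAV6 was the 1 family of 23 called (4.35%). Other V genes had 38.0% in the thymus, where TRAV6 differed by -1.84 points (-5.05 to 1.44, adjusted p = 0.367 by Fisher's exact test, 30.4% of families called), and 37.6% in the spleen, where TRAV6 was 5.39 points higher (2.70 to 8.12, adjusted p = 0.000253, 47.8% called). The odds ratios of TRAV6 against other V genes were 0.924 (thymus) and 1.25 (spleen), and their ratio of 0.738 (0.617 to 0.883) had an adjusted p of 0.0212 by Zelen's exact test of equal odds ratios, added after the files were seen, with TRAV6 again the 1 family of 23 called (4.35%). Leaving out tied clonotypes, clonotypes under 10 reads or clonotypes that were not productive ended the call between libraries, with differences of -5.19, -6.23 and -5.20 points and adjusted p-values of 0.488, 0.0552 and 0.397 by Fisher's exact test. The same settings, and a minimum of 2 reads, ended the call of unequal odds ratios, with adjusted p-values of 0.588, 0.113, 0.0899 and 0.0507 by Zelen's exact test.

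A clonotype was called productive when its CDR3 stayed in frame and held no stop codon. In TRAV6, 707 of 1011 thymus clonotypes were productive (69.9%) and 926 of 1509 spleen clonotypes (61.4%). The difference of 8.57 percentage points (4.79 to 12.3) had an adjusted p of 0.000221 by Fisher's exact test, with 13.0% of families called. TRAV6 was below the other V genes in both libraries, with a difference of -5.65 points in the thymus (-8.77 to -2.65) from 75.6% and of -9.54 points in the spleen (-12.2 to -6.92) from 70.9%. By Fisher's exact test the adjusted p-values were 0.000908, with 34.8% of families called, and 4.49e-12, with 30.4% called. Its odds ratio against other V genes, 0.751 in the thymus and 0.652 in the spleen, did not pass Zelen's exact test of a difference (ratio 1.15, 0.956 to 1.39, adjusted p = 0.913, 4.35% of families called). Without tied clonotypes the thymus value was -4.05 points (adjusted p = 0.101) and the difference between libraries 4.91 points (adjusted p = 0.323), neither called by Fisher's exact test. Tied TRAV6 clonotypes were productive in 67.1% in the thymus and 50.9% in the spleen, and untied ones in 71.9% and 67.0%.

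**Figure D4:**
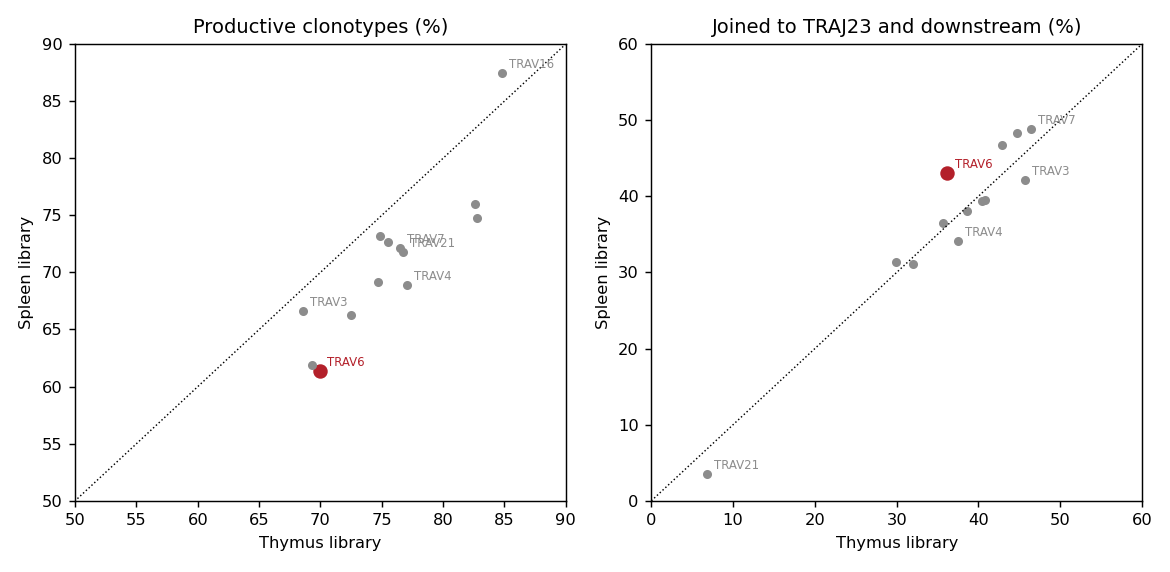
Points are the 13 V families with at least 100 clonotypes in each library, with the share in the thymus library on the horizontal and in the spleen library on the vertical axis (%; the left axes start at 50%), TRAV6 in red and a dotted line where they are equal. TRAV6 lies at 69.9% and 61.4% productive (left) and at 36.2% and 43.0% joined to TRAJ23 and downstream (right).

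The productive share varied between genes. In the spleen it was highest for TRAV6-1, 91.3% (79.7 to 96.6%), and TRAV6-4, 86.1% (71.3 to 93.9%), and lowest for TRAV6-3, 43.1% (31.2 to 55.9%), and TRAV6-6, 52.3% (46.3 to 58.2%). In the thymus it was highest for TRAV6-1, 85.7%, and lowest for TRAV6-5, 49.2% (37.5 to 61.1%), and TRAV6N-6, 57.8% (43.3 to 71.0%). The copies at 1 base of difference stood higher, TRAV6N-5 at 73.7% in the thymus and TRAV6D-3 at 71.4% in the spleen. Subgroup 5 as a whole had 64.3% in the thymus, and subgroup 3 had 55.0% in the spleen. With these copy names unsettled, the low values of TRAV6-5 and TRAV6-3 cannot be assigned to a gene. Over the 15 genes the productive shares of the libraries had a Pearson correlation of 0.494. Most TRAV6 clonotypes that were not productive were frameshifted: 301 thymus clonotypes (29.8%) and 578 spleen clonotypes (38.3%), with 3 and 5 stop codons in frame. Clonotypes that were not productive were smaller, with a median of 66 reads in the thymus against 98 for productive ones and of 72 in the spleen against 129.5. By reads, 75.3% of TRAV6 in the thymus and 80.1% in the spleen was productive, the opposite order to that by clonotype. The largest thymus clonotype, which was out of frame, held 5.43% of the TRAV6 reads there, and without it the thymus value was 79.6%.

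Productive TRAV6 CDR3s were 41.1 ± 3.90 nucleotides long in the thymus (SD over 707 clonotypes) and 40.9 ± 4.17 in the spleen (SD over 926), against 40.5 ± 4.99 and 40.5 ± 4.92 for other V genes. The commonest lengths were 42 and 39 nucleotides in both libraries, with 228 and 210 thymus clonotypes and 264 and 261 spleen clonotypes. Read as protein, 78.2% of productive TRAV6 CDR3s in the thymus (553 of 707) and 732 of 926 in the spleen began with Cys-Ala-Leu, against 16.7% and 18.6% with other V genes. Cys-Val-Leu, which TRAV6-1, TRAV6-2 and TRAV6D-5 encode, began 9.48% and 10.3%, and Cys-Ala-Met, which TRAV6-3 and TRAV6D-3 encode, began 8.63% and 6.05%.

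**Figure D5:**
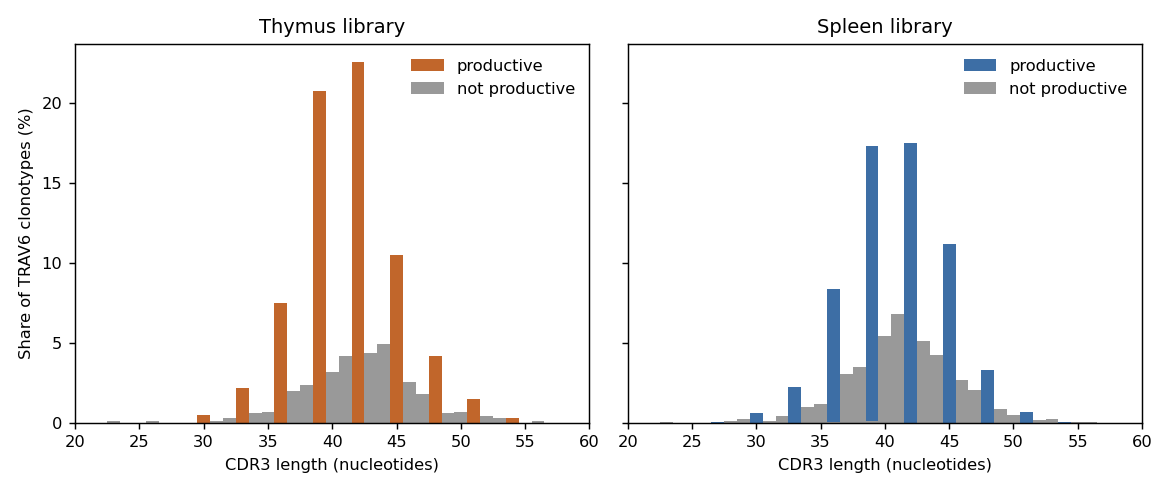
Bars give the share of TRAV6 clonotypes (%) at each CDR3 length in nucleotides, productive ones in colour and the others in grey, for the thymus and spleen libraries up to 60 nucleotides, with 8 longer clonotypes in each library not drawn. Productive lengths step by whole codons with peaks at 39 and 42, and the others fill the lengths between.

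Joins without an added base were taken as those whose aligned V and J parts met or overlapped. The aligned parts can run past the germline end of a segment, as palindromic bases do, and such bases do not count as added here. Among productive TRAV6 clonotypes they were 215 of 707 thymus clonotypes (30.4%, 27.1 to 33.9%) and 378 of 926 spleen clonotypes (40.8%, 37.7 to 44.02%). The difference of -10.4 percentage points (-15.0 to -5.73) had an adjusted p of 0.000123 by Fisher's exact test, with 34.8% of families called, none of them higher in the thymus. With aligned bases past the germline ends counted as added, an alternative chosen after seeing the data, the shares were 19.9% and 27.1%, and the difference of -7.16 points was still called (adjusted p = 0.00977 by Fisher's exact test). TRAV6 differed from other V genes by -1.61 points in the thymus (-5.21 to 2.17, adjusted p = 0.960, 4.35% of families called) and -0.12 in the spleen (-3.50 to 3.32, adjusted p = 1, 21.7% called) and passed neither exact test. Zelen's exact test called 0 of 23 families (0%), with a ratio of odds ratios of 0.932 (0.745 to 1.17, adjusted p = 0.829) for TRAV6. Among clonotypes that were not productive, joins without an added base were 37.5% of TRAV6 in the thymus and 50.6% in the spleen.

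The largest TRAV6 clonotypes are printed because they decide the values by reads. Lower case marks the germline parts of V and J, and capitals mark bases in neither.
thymus TRAV6N-6 TRAJ56: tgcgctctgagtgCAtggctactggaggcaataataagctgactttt
thymus TRAV6-2 TRAJ30: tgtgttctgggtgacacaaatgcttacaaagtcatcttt
thymus TRAV6-7-DV9 TRAJ42: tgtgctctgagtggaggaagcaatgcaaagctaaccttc
spleen TRAV6D-5 TRAJ9: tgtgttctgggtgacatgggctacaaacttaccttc
spleen TRAV6D-6 TRAJ18: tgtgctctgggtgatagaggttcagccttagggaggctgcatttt
spleen TRAV6-5 TRAJ39: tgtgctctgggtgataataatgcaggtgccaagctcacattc

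Germline parts accounted for every base of 5 of these 6. The TRAV6N-6 clonotype had 2 bases between them, which the aligner read as part of the J side. This clonotype, with TRAJ56, 47 nucleotides long and out of frame, had 6968 reads or 0.759% of the TCRα reads of the thymus (0.741 to 0.777%). It was the third TCRα clonotype of that library and was found at 0 reads in the spleen, which allows up to 0.000165% of the TCRα reads there. That limit counts reads and not the 15000 sorted cells, so it does not bound the clonotype's share of spleen cells. The same clonotype also held more than the other 44 TRAV6N-6 clonotypes of the thymus together, whose gene had 12265 reads in all. The TRAV6-2 and TRAV6-7-DV9 clonotypes had 1872 and 1293 reads. The 3 spleen clonotypes had 7772, 6780 and 5375 reads, and all 5 clonotypes other than the first were productive. None of the 6 was found in the other library. The clonotype listed under TRAV6-5 has the germline base of TRAV6N-5 at position 10, an instance of the copy names' uncertainty.

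In all, 105 TRAV6 CDR3s were found in both libraries under a TRAV6 name, 10.4% of the thymus clonotypes and 6.96% of the spleen clonotypes, with 9.53% and 12.7% of the TRAV6 reads. A further 12 TRAV6 CDR3s of each library were listed under another V family in the other. Counting these, 11.6% of thymus and 7.75% of spleen TRAV6 clonotypes recurred, against 11.5% and 7.22% of clonotypes with other V genes. The J gene was the same in all 105, the TRAV6 subgroup in 69 and the first-listed gene in 47. Of the 105, 84 were productive and 58 (55.2%) had no added base, against 29.9% of the 906 found in the thymus alone and 43.8% of the 1404 found in the spleen alone. With bases past the germline ends counted as added, and the 105 read as aligned in the thymus library, these shares were 44.8%, 18.2% and 29.1%. No CDR3 was among the 10 largest TRAV6 clonotypes of both libraries, although 1 of the 10 of the thymus library and 3 of the 10 of the spleen library were found in the other.

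The 4 recurring TRAV6 CDR3s with most reads in the library where they were smaller are shown because each can be read from germline V and J letters alone, so all are in lower case.
TRAJ22: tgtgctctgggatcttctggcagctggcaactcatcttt
TRAJ27 with 435 thymus reads: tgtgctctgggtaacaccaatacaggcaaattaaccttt
TRAJ27 with 304 thymus reads: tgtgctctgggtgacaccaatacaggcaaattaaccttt
TRAJ30: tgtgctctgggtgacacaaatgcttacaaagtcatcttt

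The TRAJ22 join had 461 reads in the thymus, listed under TRAV6D-6, and 2345 in the spleen, under TRAV6N-7. The first TRAJ27 join had 435 and 1971 reads, under TRAV6N-7 and TRAV6-5, and the second had 304 and 300, under TRAV6D-6 and TRAV6N-7. The TRAJ30 join had 276 and 1000 reads, under TRAV6D-4 and TRAV6D-6. All 4 were listed under a different subgroup in each library.

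Several nucleotide forms of 1 CDR3 protein also occurred. In the thymus 71 of 707 productive TRAV6 clonotypes (10.04%) shared their protein with another form, in 32 proteins, and in the spleen 163 of 926 (17.6%), in 72 proteins. The protein with most forms was a TRAJ31 join of the spleen with 8, all 39 nucleotides long, of which 7 were listed under TRAV6D-6 and 1 under TRAV6-6. They are shown with bases outside the germline parts in capitals beside germline TRAJ31 at chr14:54187895-54187951, because they differ only where V and J meet.
germline TRAJ31: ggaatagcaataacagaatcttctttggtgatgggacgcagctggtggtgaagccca
473 reads: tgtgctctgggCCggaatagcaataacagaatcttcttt
243 reads: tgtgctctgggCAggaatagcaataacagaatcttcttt
238 reads: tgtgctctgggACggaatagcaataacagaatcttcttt
235 reads: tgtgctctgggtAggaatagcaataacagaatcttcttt
191 reads: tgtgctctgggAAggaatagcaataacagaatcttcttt
189 reads: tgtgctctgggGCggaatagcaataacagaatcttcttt
165 reads: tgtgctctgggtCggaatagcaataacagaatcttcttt
119 reads: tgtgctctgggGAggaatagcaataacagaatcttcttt

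The 8 forms had 119 to 473 reads, without 1 that stood over the rest by 20 times or more. Each had 1 or 2 bases outside the germline parts. The 4 thymus forms of the protein with most forms there were TRAJ27 joins under TRAV6D-4 or TRAV6-4 with 388, 63, 20 and 1 reads. Unlike the spleen set, the forms with 20 and 1 reads differed from that with 388 only within the TRAJ27 part, and not where V and J meet. The reads of the 4 forms fell over a wider range than those of the spleen set.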

How the data were processed

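TCR transcripts of 2 libraries were used, 1 per tissue, grouped by the tissue in the sample labels. The authors aligned reads and assembled clonotypes with MiXCR and deposited 1 row per CDR3 with its read count, not normalized, and with the fraction it makes of the library's reads, which was used only as a check of the counts. Read filters and molecular identifiers are not given in the sources used here. V genes were taken as the first listed. A tie meant an equal top score. Each clonotype counted once, in frame or not. Shares carry Wilson 95% intervals and differences Newcombe intervals. Fisher's exact tests, two-sided, ran over all V families or genes with at least 10 clonotypes, with Benjamini-Hochberg adjustment, and were tested on simulated data. The family, gene lists and tests were chosen with earlier results of these data known. Named were all TRAV6 genes, the 3 leading TRAJ genes and clonotypes of each library, the largest recurring clonotypes and the commonest ties. Zelen's exact test of equal odds ratios (adjusted over the 23 families, its ratio with a log-scale interval), the base check, the distance correlations and the TRAV6-7-DV9 contrast were added after the values were seen. Alternatives were 2 or 10 reads at least, no ties, no recurring clonotypes, equal reads, merging of 1-nucleotide errors at 20 times the reads, productive clonotypes only, all frames, and weighting by reads; leaving out the largest thymus TRAV6 clonotype, leaving out CDR3s over 80 nucleotides or with another family listed, and counting aligned bases past the germline ends (read from the reference points MiXCR gives) as added, were added after seeing the data. Coordinates and germline letters came from GENCODE M21 (GRCm38), while MiXCR used its own gene library. Python, pandas and scipy were used.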

Additional observations from a re-analysis of the deposited data

Results flagged for a closer look

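The use of the 3′ TRAJ block (TRAJ23 and downstream) by TRAV6 stood differently to that of other V genes in the libraries: -1.84 percentage points in the thymus and 5.39 in the spleen. The difference between these was tested by Zelen's exact test of equal odds ratios over 23 V families (ratio 0.738, adjusted p = 0.0212), and TRAV6 was the 1 family called (4.35%). The adjusted p of this exact test was 0.0146 to 0.588 over the alternatives, and the call was lost without tied clonotypes, with at least 2 or 10 reads and with productive clonotypes only. With 1 library per tissue, tissue and library cannot be told apart.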

How the results depend on the processing

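No paired analysis was possible because each tissue gave 1 library. Every TRAV6 tie was with another TRAV6 gene, so leaving out ties does not check membership of the family. It removes all clonotypes listed under TRAV6-6 and TRAV6D-7 and leaves 601 TRAV6 clonotypes in the thymus and 981 in the spleen. Without tied clonotypes, 4 calls were lost: the TRAV6 productive share against other V genes in the thymus (-4.05 percentage points), that share between thymus and spleen (4.91), the 3′ TRAJ block share between them (-5.19) and the ratio of its odds ratios (0.824). At 10 reads or more the last pair was -6.23 and 0.766, and with productive clonotypes only it was -5.20 and 0.729, again not called. At 2 reads or more the ratio was 0.7497 (adjusted p = 0.0507 by Zelen's exact test and 0.0465 by Woolf's approximate test). Productive clonotypes only also brought the difference in TRAV6 share to 1.63 points, which was called (adjusted p = 0.0345 by Fisher's exact test). In that setting 3 TRAV6 genes were called in place of 1, and the share of all V genes called was not counted. Weighted by reads, with no test, the productive share was lower in the thymus, by -4.79 points, and still by -0.46 without the largest thymus clonotype. Other values by reads were -0.978 for the TRAV6 share, -11.0 (thymus) and -6.51 (spleen) for productive against other V genes, 5.57 and 5.74 for no added base against them and -25.2 between libraries, and 3.33, 8.12 and -10.7 for the 3′ block. The cause was not tested. The other 67 planned and 49 added values kept their call. Without ties 4 uncalled values changed sign: the difference in TRAV6 share (-0.777), no added base against other V genes in the thymus (0.76) and spleen (3.34), and the 3′ block against them in the thymus. With all frames, no added base against other V genes also changed sign, to 0.325 and 0.111, again not called. Weighting by reads gives no count of genes and no ratio of odds ratios. The libraries' depth limits clonotypes of few reads.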
